A study of Mus musculus with 18 samples.

Results

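The comparison described here was that of metaphase II (MII) oocytes grown *in vitro* with MII oocytes grown *in vivo*. Its members were the 6 MII libraries among the 18 libraries of the series, taken by their sample labels, 3 in each group, and they were described across genes. The paper's methods name F1 mice (C57Bl/6j × CBA/J) as the animals bred and mention no transgene. They give no separate strain for the adult females of the *in vivo* group. Both groups had received human chorionic gonadotropin (hCG). In the *in vitro* group, ovaries of 7-day-old females were cultured for 7 days, secondary follicles were then kept in alginate with follicle stimulating hormone for 12 days, and hCG was added at 1.5 IU/ml. In the *in vivo* group, 9 adult females were injected with 10 IU human menopausal gonadotrophin and, 48 h later, with 10 IU hCG. The groups therefore differed in the age of the donor and in the hormones as well as in culture, and these cannot be told apart. A tube of 10 oocytes gave each library, and cDNA was amplified over its full length by Smart-seq II. No label ties the tubes to separate animals or cultures, so p-values measure the spread between these libraries, which may be technical.

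An MII oocyte has completed the first meiotic division and waits on the second spindle for fertilization. Transcription stops before meiosis resumes, so the RNA of an MII oocyte is a store made during growth, which is translated, kept silent or degraded on schedule. A difference in counts between such oocytes can come from synthesis during growth, from later decay or from other sources, and none of these was tested. Bulk libraries do not separate less RNA per oocyte from fewer oocytes holding it.

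The total count ranged from 7334817 to 9879491 in the *in vivo* libraries and from 8898672 to 9978830 in the *in vitro* libraries. A count of 3 was used as the floor. It came to 0.301 to 0.409 CPM, the count scaled to the library total, and covers counting error only, as the libraries carry no molecular identifiers. At an equal total, 14512 to 15485 genes were detected *in vivo* and 15219 to 17833 *in vitro* (two-sided exact permutation test, p = 0.3, where 3 libraries against 3 cannot go below 0.1). Spearman correlations were 0.864 to 0.903 within the *in vivo* group, 0.894 to 0.931 within the *in vitro* group and 0.843 to 0.903 between the groups. *In vivo* library 1 correlated at 0.864 with *in vivo* library 2, at 0.897 with *in vivo* library 3 and at 0.903 with *in vitro* library 2. *In vivo* library 2 had the lowest correlations with the *in vitro* libraries (0.843 to 0.866). *In vivo* library 1 had the lowest scaling factor of the 6 (0.847), and leaving it out changed the number of calls the most, so main counts are also given without it. The oocyte genes *H1foo* and *Bcl2l10* were among the most abundant in every library, with means of 14872 and 7416 normalised CPM.

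Of the 17144 genes with at least 10 counts in total, edgeR's quasi-likelihood test called 60. A call required a difference of 2-fold or more whose p, after Benjamini-Hochberg adjustment, was under 0.05. In the *in vitro* group 49 were higher, which is 0.286% of the genes tested, and 11 were lower, which is 0.0642%. The log2 fold changes of the higher genes lay between 1.64 and 11.33, and the lower genes fell by 1.74 to 3.10 on the log2 scale. At an unadjusted p under 0.05, 1027 genes (5.99%) were higher and 716 (4.18%) were lower. The values of the groups did not overlap for 1606 genes (9.37%) that were higher and 1167 (6.81%) that were lower. The median log2 fold change over all genes was 0.04. The number of calls rested on single libraries. Without *in vivo* library 1, edgeR called 281 genes higher (1.67% of those tested) and 97 lower (0.578%), and with any one *in vitro* library left out it called 11 or 12 higher and 0 to 2 lower. DESeq2 with its defaults called 224 higher (1.31%) and 127 lower (0.741%) on the 6 libraries. All 49 and all 11 were among the DESeq2 calls and among the calls without *in vivo* library 1.

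**Figure D1:**
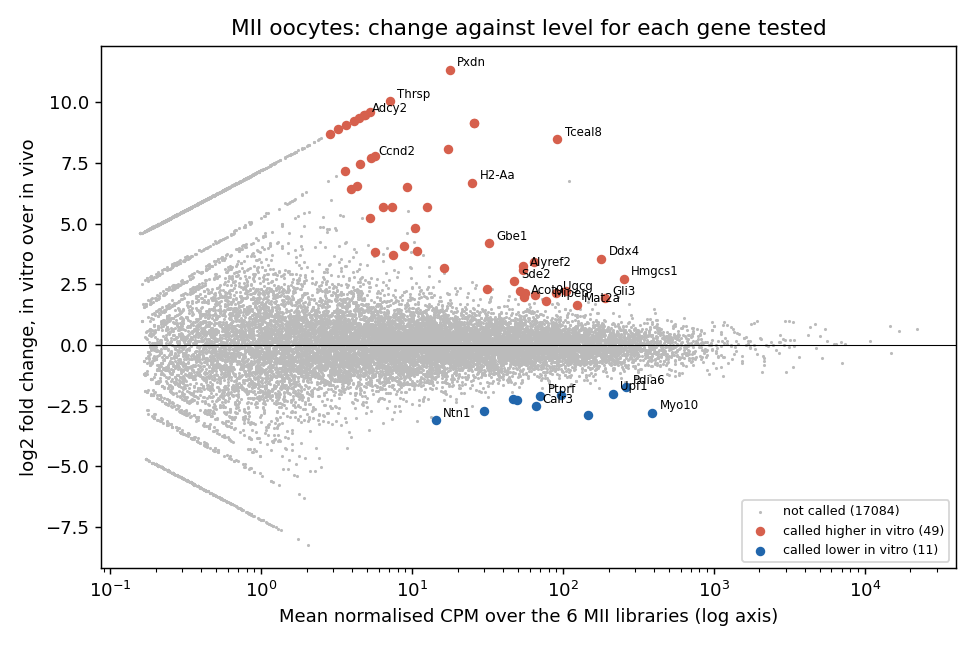
Log2 fold change (*in vitro* over *in vivo*) against the mean normalised CPM over the 6 MII libraries (log axis), 1 point for each of the 17144 genes tested. The 11 genes called lower (blue) lie above 10 CPM, whereas the 49 called higher (red) extend down to a few CPM. The straight outer lines of points are genes with no count in one group, whose fitted fold change follows their level.

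Calls depended on the level of the gene. None of the 4239 genes with a mean of up to 1 normalised CPM was called by edgeR. The median standard error there was 2.25 on the log2 scale. Between 1 and 10 CPM, 22 of 5775 genes were higher and 0 were lower. Between 10 and 100 CPM, 22 of 5148 were higher and 7 were lower, and above 100 CPM, 5 of 1982 were higher and 4 were lower. All 11 lower genes were therefore well counted. Protein-coding genes made up 33 of the 49 higher and 6 of the 11 lower genes, and 9 of the higher genes but none of the lower were annotated as pseudogenes.

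One class of higher genes was almost silent *in vivo*. For 10 of the 49 no count was found in any *in vivo* library, and for 21 no *in vivo* library exceeded the floor, whereas all 49 exceeded it in each *in vitro* library. *Pxdn* (ENSMUSG00000020674, chromosome 12, 29937608 to 30017658, plus strand) encodes peroxidasin, an enzyme that cross-links collagen IV of basement membranes. It had 0 counts in all 3 *in vivo* libraries and 416, 246 and 310 in the *in vitro* libraries. The *in vitro* mean was 35.4 ± 12.5 normalised CPM (SD, n = 3) and lay at least 103-fold above the floor-based *in vivo* level (adjusted p = 0.000433). *Thrsp*, known from lipid-making tissues as a thyroid hormone responsive gene, had 0 counts *in vivo* and 110, 150 and 142 *in vitro*, at least 41.7-fold higher (adjusted p = 0.00281).

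*Adcy2*, an adenylate cyclase that makes cyclic AMP, had 0 counts *in vivo* and 95, 106 and 71 *in vitro*, at least 28.2-fold higher (adjusted p = 0.0083). Annotated genes on both strands overlap it. *Ephb2*, a receptor tyrosine kinase for ephrin ligands, had 0 counts *in vivo* and 92, 66 and 87 *in vitro*, at least 25.9-fold higher (adjusted p = 0.0118). It was the only called member of the 20 tested genes of the study's own top MII list. At an unadjusted p under 0.05, 13 of the 20 were higher, beside 5.99% of all genes. The summed level of the 20 was 0 in every *in vivo* library, so none of them could lie below 0. *Kcna1* (adjusted p = 0.0725) and *Nqo2* (adjusted p = 0.229) of that list were not called. That list was drawn from these libraries and is not independent evidence of direction. *Pxdn*, *Thrsp*, *Adcy2* and *Ephb2* remained far below the abundant oocyte RNAs. In each of them, every *in vitro* library lay above every *in vivo* library.

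*Tceal8* (ENSMUSG00000051579, X chromosome), a member of the family of transcription elongation factor A-like proteins, reached the highest level of the nearly silent genes. It had 12, 1 and 0 counts *in vivo* and 900, 2054 and 2227 *in vitro*. The means were 0.518 ± 0.796 and 183 ± 73.3 normalised CPM (SD, n = 3), a log2 fold change of 8.47 (SE 0.86, adjusted p = 0.000475). *In vivo* library 1 held nearly all of the *in vivo* counts, and the groups were far apart without it as well. *Tceal8* was called in all 17 alternative fits.

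*H2-Aa*, the alpha chain of a class II antigen-presenting molecule, had 0, 0 and 13 counts *in vivo* and 298, 485 and 610 *in vitro* (log2 fold change 6.68, SE 0.96, adjusted p = 0.00802). The genes that work with it were looked at after its values were seen. The beta chain *H2-Ab1* and the class II activator *Ciita* had 0 counts in all 6 libraries, and so had the leukocyte marker *Ptprc*. The invariant chain *Cd74* had 0, 6 and 13 counts *in vitro* and 0 *in vivo*. *H2-Eb1*, the beta chain of the other class II molecule, had 0, 20 and 14 counts *in vitro* and 0 *in vivo* (adjusted p = 0.459). Reads of *H2-Aa* were thus counted without those of its own partner chain *H2-Ab1*.

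*Ccnd2*, the D-type cyclin known for its part in granulosa cell proliferation, had 1, 0 and 0 counts *in vivo* and 111, 128 and 63 *in vitro*. The ratio was 284, with an exact 95% counting interval of 50.5 to 11236 (adjusted p = 0.00802). Its relatives *Ccnd1* (adjusted p = 0.828) and *Ccnd3* (adjusted p = 0.712), chosen after their values were seen, were counted in both groups. Markers of granulosa and cumulus cells stood beside this result. Of 29 such markers, 6, 7 and 9 exceeded the floor in the *in vivo* libraries and 13, 12 and 9 in the *in vitro* libraries, with summed levels of 539 to 699 and 656 to 1322 CPM. *Serpine2*, with 656 normalised CPM on average, made up most of these sums. *Inhba*, an activin subunit, had 0 counts *in vivo* and 23, 15 and 51 *in vitro*, and *Grem1*, a BMP antagonist of cumulus cells, 0 and 41, 28 and 22. *Fshr*, the receptor for follicle stimulating hormone, had 0, 0 and 23 counts *in vivo* and 11, 47 and 20 *in vitro*, and the inhibin subunit *Inha* had 0 *in vivo* and 14, 14 and 0 *in vitro*. In all 6 libraries 12 of the 29 markers were at 0, among them *Foxl2*, *Lhcgr*, *Amhr2*, *Nr5a1* and *Fst*. None of the 14 granulosa markers tested was called by edgeR, and 3 were higher at an unadjusted p under 0.05, beside 5.99% of all genes. DESeq2 called 2, beside 1.31% of all genes called higher and 0.741% called lower. The median log2 fold change of these markers was 0.85, against 0.04 over all genes. *Cyp19a1*, the aromatase, had 1039, 350 and 479 counts *in vivo* and 334, 655 and 611 *in vitro*. The part of these markers in the *Ccnd2* result was not tested.

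A second class of higher genes was counted in every library of both groups. *Ddx4* (ENSMUSG00000021758, chromosome 13, minus strand), the vasa RNA helicase that marks germ cells, had 44.6, 14.4 and 25.1 normalised CPM *in vivo* and 321, 369 and 298 *in vitro*. The lowest *in vitro* library lay well above the highest *in vivo* library. The log2 fold change was 3.55 (SE 0.43, adjusted p = 0.00206), and the gene was called in all 17 alternative fits. *Dazl*, another RNA-binding protein of germ cells that was chosen after its values were seen, had 5220 to 7783 counts *in vivo* and 6038 to 6897 *in vitro* (log2 fold change -0.08, adjusted p = 0.962).

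*Gbe1*, the glycogen branching enzyme, had 41, 17 and 30 counts *in vivo* and 463, 635 and 622 *in vitro*. Its log2 fold change was 4.19 (SE 0.48, adjusted p = 0.00166). Other glycogen genes, chosen after their values were seen, were not called. They were the glycogen synthase *Gys1* (log2 fold change -0.27, adjusted p = 0.869) and the primer *Gyg* (0.41, adjusted p = 0.771). Whether these genes differed from *Gbe1* in their change was not tested.

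*Hmgcs1* (ENSMUSG00000093930, chromosome 13, plus strand), the enzyme that makes HMG-CoA for the mevalonate pathway, had 62.4, 75.9 and 61.2 normalised CPM *in vivo* and 351, 468 and 490 *in vitro*. Its log2 fold change was 2.72 (SE 0.33, adjusted p = 0.00206). The antisense gene *Gm48342* overlaps it and rose as well (log2 fold change 3.24, adjusted p = 0.00504), and their reads could not be told apart without strand. *Ugcg*, which makes glucosylceramide from ceramide, had 34.2, 35.2 and 30.2 normalised CPM *in vivo* and 143, 133 and 160 *in vitro* (log2 fold change 2.13, SE 0.33, adjusted p = 0.0116). The SDs of *Hmgcs1* and *Ugcg* were 8.15 and 2.65 normalised CPM *in vivo* and 75.1 and 13.5 *in vitro*.

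*Alyref2*, an adaptor of mRNA export, had 14.7, 8.88 and 10.1 normalised CPM *in vivo* and 129, 65.7 and 95.5 *in vitro* (log2 fold change 3.11, adjusted p = 0.00413). It is overlapped by a called antisense gene, *B930036N10Rik* (log2 fold change 3.41). *Sde2*, a protein of pre-mRNA splicing and genome maintenance, had 15.5, 13.8 and 10.3 normalised CPM *in vivo* and 90.7, 61.6 and 92.6 *in vitro* (log2 fold change 2.63, adjusted p = 0.0083). Both genes had groups that did not overlap.

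**Figure D2:**
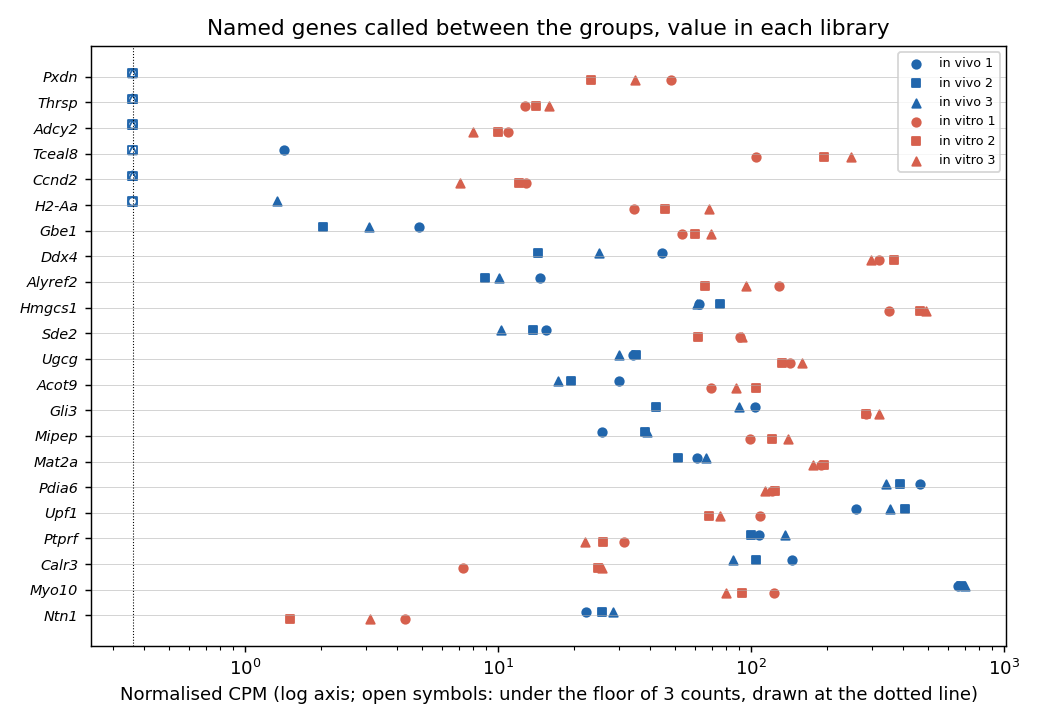
Normalised CPM (log axis) of 22 called genes in each of the 6 MII libraries, blue for *in vivo* and red for *in vitro*, with a symbol for each replicate number. Open symbols at the dotted line are values under the floor of 3 counts. In every gene the 3 *in vitro* libraries lie on one side of the 3 *in vivo* libraries. This was a condition of the choice for all but the moderately changed genes. *Pxdn*, *Thrsp*, *Adcy2* and *Ccnd2* have all 3 *in vivo* libraries at the floor.

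Moderate changes were few among the calls. Of the 7130 genes with a mean of at least 10 normalised CPM, 27 were higher and 11 were lower at an adjusted p under 0.05. None of them changed less than 2-fold, 4 of the higher and 1 of the lower changed 2- to 4-fold, and 23 and 10 changed more. The mean was taken over all 6 libraries, so a gene almost silent in either group could pass through the other group alone. Such a gene has a large fold by the filter, as with *Pxdn*, whose mean was 17.7 CPM with 0 *in vivo*. The median standard error was 0.466 on the log2 scale between 10 and 100 CPM and 0.352 above 100 CPM. The smallest log2 changes that passed were 1.64 for higher and 1.74 for lower genes. Changes under 2-fold could thus hardly pass, and these counts do not show that moderate changes were rare. At an unadjusted p under 0.05 there were 471 higher and 458 lower genes, of which 413 and 433 changed less than 4-fold. Without *in vivo* library 1, 224 well counted genes were higher and 90 were lower at an adjusted p under 0.05, and 119 and 61 of them changed 2- to 4-fold. The 27 and the 11 were all among them.

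The 4 moderately higher genes were *Mat2a*, *Gli3*, *Mipep* and *Acot9*. *Mat2a*, which makes the methyl donor S-adenosylmethionine, had 61.4, 51.7 and 66.7 normalised CPM *in vivo* and 189, 194 and 177 *in vitro*. Its log2 fold change was 1.64 (SE 0.31, adjusted p = 0.0458), the smallest of the higher genes. *Gli3*, a transcription factor of Hedgehog signaling, had 104, 42.4 and 90.2 normalised CPM *in vivo* and 286, 285 and 322 *in vitro* (log2 fold change 1.92, adjusted p = 0.0483). *Mipep*, a peptidase that matures imported mitochondrial proteins, rose from 34.2 ± 7.29 to 120 ± 20.5 normalised CPM (SD, n = 3, adjusted p = 0.0458), and *Acot9*, a mitochondrial acyl-CoA thioesterase, from 22.3 ± 6.94 to 87.3 ± 17.8 (adjusted p = 0.0464). Their adjusted p-values lay just under the threshold, and 7 or 8 of the 17 alternative fits called each. Further well counted genes of the called set, chosen after their values were seen, were *Stard5*, a carrier of cholesterol (log2 fold change 2.23), *Ccdc28a* (2.23), *Klhl12*, an adaptor of a ubiquitin ligase (2.04), and *Fam83d*, a protein of the mitotic spindle (2.29).

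Genes lower *in vitro* were led by *Myo10* (ENSMUSG00000022272, chromosome 15, plus strand), an unconventional myosin of filopodia that is also known to bind microtubules. It had 5523, 5647 and 6812 counts *in vivo* and 1063, 979 and 714 *in vitro*. In normalised CPM the means were 680 ± 20.7 and 98.6 ± 22.3 (SD, n = 3), so the *in vivo* libraries differed little among themselves and lay far above the *in vitro* libraries. *Myo10* fell by 2.79 on the log2 scale (SE 0.33, adjusted p = 0.00206). Annotated genes on the same strand overlap it. It was called in 16 of 17 alternative fits, the exception being the fit without *in vitro* library 3 (adjusted p = 0.054).

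*Ptprf*, a receptor tyrosine phosphatase of cell contacts, had 108, 100 and 136 normalised CPM *in vivo* and 31.5, 26.0 and 22.1 *in vitro* and fell by 2.11 on the log2 scale (adjusted p = 0.0193). *Ntn1*, which encodes the guidance protein netrin-1, had 22.4, 25.9 and 28.4 normalised CPM *in vivo* and 4.29, 1.51 and 3.14 *in vitro*. It fell by 3.10, the most of the lower genes (SE 0.56, adjusted p = 0.0317). *Upf1*, the helicase of nonsense-mediated mRNA decay, had 261, 408 and 356 normalised CPM *in vivo* and 108, 68.5 and 75.9 *in vitro* and fell by 2.02 (adjusted p = 0.0207). On the opposite strand, *Cers1* and *Gdf1* overlap *Upf1* at its end by 68 and 63 bases, and their adjusted p-values were 0.0834 and 0.0823 at log2 fold changes of -1.92 and -1.95. Reads within those bases could not be assigned to a strand.

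Another pair of lower genes encodes proteins of the endoplasmic reticulum. *Pdia6*, a protein disulfide isomerase, had 468, 387 and 343 normalised CPM *in vivo* and 121, 124 and 114 *in vitro* and fell by 1.74 on the log2 scale (SE 0.31, adjusted p = 0.0304). *Calr3*, a calreticulin of germ cells, had 145, 105 and 85.3 normalised CPM *in vivo* and 7.31, 24.9 and 25.9 *in vitro* and fell by 2.53 (SE 0.48, adjusted p = 0.0402). In both, each *in vitro* library lay below each *in vivo* library. The 5 other lower genes are annotated as non-coding or unclassified, and no lower gene was called in every fit that left out a library.

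Cells make sterols from acetyl-CoA through the mevalonate pathway, whose genes are known targets of the SREBP transcription factors and of NF-Y, which binds CCAAT boxes. *Hmgcs1* was called, and 10 genes of the list below were higher at an unadjusted p under 0.05. Promoters are therefore shown for *Hmgcs1* and for *Idi1*, *Msmo1* and *Acly*, which DESeq2 also called. DESeq2 called *Stard4* as well, whose promoter is not shown. Each promoter shown is the 250 bases upstream of the RefSeq start site (GRCm38.p6), 5′ to 3′ on the strand of the gene. Capitals mark matches to CCAAT on either strand (ATTGG where the match is on the other strand) and, in *Hmgcs1*, to TCACNCCAC, a form of the sterol regulatory element. The windows lie at chr13:119690101-119690350 (plus strand) for *Hmgcs1*, chr13:8885356-8885605 (plus strand) for *Idi1*, chr8:64733579-64733828 (minus strand) for *Msmo1* and chr11:100528001-100528250 (minus strand) for *Acly*.
Hmgcs1: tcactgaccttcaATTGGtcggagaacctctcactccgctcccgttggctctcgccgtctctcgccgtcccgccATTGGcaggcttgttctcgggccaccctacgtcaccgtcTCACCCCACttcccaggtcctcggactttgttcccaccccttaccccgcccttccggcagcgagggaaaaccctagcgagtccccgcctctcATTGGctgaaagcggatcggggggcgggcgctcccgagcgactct
Idi1: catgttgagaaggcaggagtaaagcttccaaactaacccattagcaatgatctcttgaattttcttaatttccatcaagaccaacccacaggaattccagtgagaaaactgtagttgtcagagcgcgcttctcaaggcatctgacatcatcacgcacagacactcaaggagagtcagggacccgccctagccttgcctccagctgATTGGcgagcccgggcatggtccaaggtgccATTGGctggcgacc
Msmo1: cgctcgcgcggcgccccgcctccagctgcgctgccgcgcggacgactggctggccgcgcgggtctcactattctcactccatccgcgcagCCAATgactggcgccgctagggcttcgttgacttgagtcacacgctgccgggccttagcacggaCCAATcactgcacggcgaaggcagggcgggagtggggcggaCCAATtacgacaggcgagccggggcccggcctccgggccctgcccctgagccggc
Acly: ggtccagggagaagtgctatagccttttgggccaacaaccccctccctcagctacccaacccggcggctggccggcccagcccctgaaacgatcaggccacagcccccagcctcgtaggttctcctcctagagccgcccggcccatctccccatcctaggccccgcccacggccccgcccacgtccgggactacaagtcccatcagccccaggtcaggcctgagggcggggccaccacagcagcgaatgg
The *Hmgcs1* window held 3 CCAAT matches, that of *Idi1* 2, that of *Msmo1* 3 and that of *Acly* 0. TCACNCCAC, searched on both strands, lay in the *Hmgcs1* window from 137 to 129 bases upstream and in 1.05% of all 32841 windows of this length. It lay in 1 of the 23 tested genes of the sterol and fatty acid list that had a window, which was *Hmgcs1*. CCAAT lay in 20 of these 23 genes and in 37.5% of all 27018 genes with a window. The letters CACGTG lay in 6 of these 23 and in 6.86% of all genes. Of the 7 genes with a window that were higher at an unadjusted p under 0.05, 6 held CCAAT, 1 held CACGTG and 1 held TCACNCCAC. Such matches are descriptions of the sequence and do not show binding.

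Of the 33 tested members of the list of sterol and fatty acid synthesis genes, 1 was called higher (*Hmgcs1*) and 0 were called lower by edgeR, with a median log2 fold change of 0.64 against 0.04 over all genes. At an unadjusted p under 0.05, 10 were higher and 2 were lower, beside 5.99% and 4.18% of all genes. The groups did not overlap for 9 and 2, beside 9.37% and 6.81% of all genes. DESeq2 with its defaults called 5 higher and 0 lower (1.31% and 0.741% of all genes), namely *Hmgcs1*, *Stard4*, *Msmo1*, *Acly* and *Idi1*. Without *in vivo* library 1, edgeR called 4 higher and 0 lower, beside 1.67% and 0.578% of all genes. The median stayed between 0.30 and 0.80 in the 17 alternative fits.

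*Idi1*, the isomerase that makes the active isoprenoid unit, had 1180, 368 and 458 counts *in vivo* and 2123, 2473 and 2316 *in vitro*, with means of 77.5 ± 55.1 and 247 ± 12.9 normalised CPM (SD, n = 3). Its log2 fold change was 1.67 (adjusted p = 0.179) and 2.43 without *in vivo* library 1 (adjusted p = 0.00255). *Msmo1*, which demethylates sterols, had 394, 205 and 190 counts *in vivo* and 864, 900 and 746 *in vitro* (log2 fold change 1.56, adjusted p = 0.161, and 2.02 and 0.0161 without *in vivo* library 1). *Acly*, which makes cytosolic acetyl-CoA, had 274, 140 and 225 counts *in vivo* and 474, 824 and 625 *in vitro* (log2 fold change 1.48, adjusted p = 0.176, and 1.76 and 0.0395 without *in vivo* library 1). For all of them, the *in vitro* libraries lay above the *in vivo* libraries.

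*Stard4*, a sterol carrier, had a log2 fold change of 1.98 (adjusted p = 0.108). Members below their *in vivo* level were *Insig1*, which holds SREBP back in the endoplasmic reticulum and was the most abundant of the list (log2 fold change -0.70, adjusted p = 0.475), and *Fasn*, the fatty acid synthase, with 49, 144 and 195 counts *in vivo* and 39, 58 and 11 *in vitro* (log2 fold change -1.94, adjusted p = 0.403). Values of the list thus went in both directions, and 22 of the 33 were above 0. The SREBP escort *Scap* was at -0.60 (adjusted p = 0.53).

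**Figure D3:**
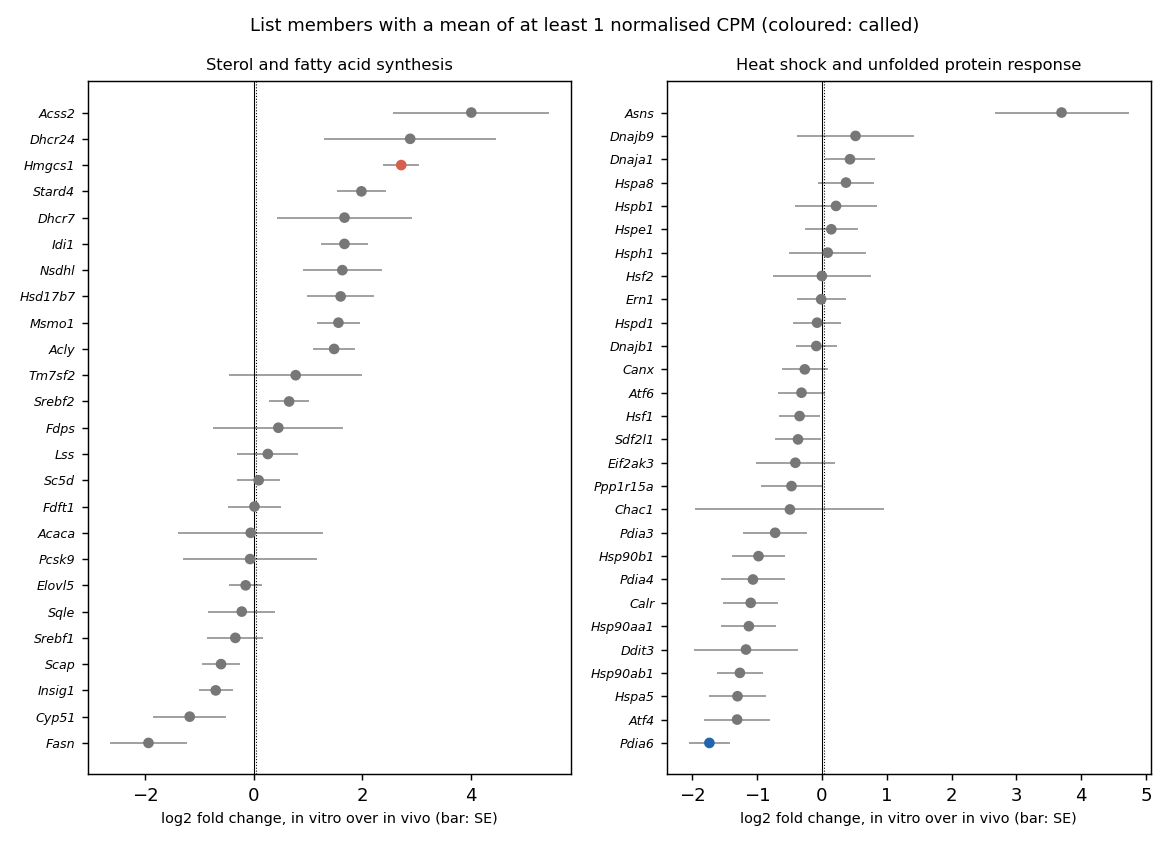
Log2 fold change (*in vitro* over *in vivo*, bars SE) of members with a mean of at least 1 normalised CPM, 25 of the sterol and fatty acid list at the left and 28 of the heat shock and unfolded protein list at the right. The dotted line is the median of all genes (0.04), coloured points are called genes (*Hmgcs1* at 2.72 and *Pdia6* at -1.74), and grey points are not called.

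Chaperones bind proteins that are not yet folded, and those of the endoplasmic reticulum serve secreted and membrane proteins such as the zona pellucida. Of 32 tested members of the heat shock and unfolded protein response list, 1 was called lower (*Pdia6*) and 0 were called higher by edgeR, with a median log2 fold change of -0.33. At an unadjusted p under 0.05, 8 were lower and 1 was higher, beside 4.18% and 5.99% of all genes. DESeq2 called 2 lower and 1 higher, beside 0.741% and 1.31% of all genes, and so did edgeR without *in vivo* library 1, beside 0.578% and 1.67%. The summed level of the list was 7163, 9568 and 8231 normalised CPM *in vivo* and 5208, 4854 and 4765 *in vitro*, and *Hsp90aa1*, the inducible cytosolic Hsp90, gave much of it. *Hsp90aa1* had 16776, 50100 and 41903 counts *in vivo* and 21338, 16458 and 14412 *in vitro*, so its groups overlapped through *in vivo* library 1 (log2 fold change -1.13, adjusted p = 0.413). Without that library it was called at -1.46 (adjusted p = 0.026).

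*Hsp90ab1*, the constitutive Hsp90, had 6855, 6554 and 7013 counts *in vivo* and 1691, 3499 and 3936 *in vitro* (log2 fold change -1.27, adjusted p = 0.23). Among the chaperones of the endoplasmic reticulum, *Hspa5* (BiP) was at -1.30 (adjusted p = 0.371), *Calr* at -1.10 (adjusted p = 0.427), *Pdia4* at -1.06 (adjusted p = 0.485) and *Hsp90b1* at -0.98 (adjusted p = 0.459). *Asns*, an asparagine synthetase that stress signaling induces, went the other way, with 38, 0 and 5 counts *in vivo* and 310, 153 and 137 *in vitro* (log2 fold change 3.70, adjusted p = 0.226). None of these 6 genes passed the adjusted threshold in edgeR with all 6 libraries. Without *in vivo* library 1, *Asns* did (log2 fold change 6.27, adjusted p = 0.0137). *Ern1*, the sensor kinase IRE1, was among the most abundant members of the list (-0.01, adjusted p = 0.996).

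Among genes of meiosis and the maternal store, few members were called by edgeR with all 6 libraries. Counts at an unadjusted p under 0.05 in this and the following lists stand against 5.99% of all genes that were higher and 4.18% that were lower. DESeq2 calls in them stand against 1.31% higher and 0.741% lower. Calls by edgeR without *in vivo* library 1 stand against 1.67% higher and 0.578% lower. Without *in vivo* library 1, edgeR called 4 higher and 1 lower in the spindle list, 4 and 0 among meiotic kinases, 3 and 0 in mRNA storage, 1 and 0 in oocyte identity, 0 and 1 in sperm binding, and none of the maternal effect and subcortical complex genes. The list of the spindle and of chromosome segregation had 1 called member of 41, *Myo10*, and a median of 0.06. At an unadjusted p under 0.05, 3 of its members were higher and 5 were lower. *Sgo1*, a protector of centromere cohesion, had 331, 275 and 290 counts *in vivo* and 664, 974 and 927 *in vitro* (log2 fold change 1.41, adjusted p = 0.138). *Numa1*, which focuses spindle poles, was at -1.29 (adjusted p = 0.253) and *Aurkc*, the meiotic Aurora kinase, had 5146, 2603 and 3733 counts *in vivo* and 1998, 2181 and 1928 *in vitro* (adjusted p = 0.367). The most abundant members were securin *Pttg1* (-0.01, adjusted p = 0.996) and the checkpoint gene *Bub1b* (-0.01, adjusted p = 0.997). Of 32 meiotic kinases and cyclins, edgeR called none, 2 were higher and 2 lower at an unadjusted p under 0.05, and DESeq2 called 0 (median -0.02). *Ccnb1* (0.73, adjusted p = 0.557) and *Wee2* (0.14, adjusted p = 0.953) were the most abundant of them.

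The list of maternal mRNA storage and decay had 1 called member of 42, *Ddx4*, with a median of 0.24. At an unadjusted p under 0.05, 5 of its members were higher and 0 were lower, beside 5.99% and 4.18% of all genes. The groups did not overlap for 9 that were higher and 2 that were lower, beside 9.37% and 6.81% of all genes. The abundant deadenylation adaptor *Btg4* (0.03, adjusted p = 0.991) and decapping enzyme *Dcp1a* (0.23, adjusted p = 0.893) were not called, and *Parn*, a deadenylase, had a log2 fold change of 1.88 (adjusted p = 0.191). Of 24 maternal effect and reprogramming genes, edgeR called none and DESeq2 1 (median -0.21), and 1 was higher and 1 lower at an unadjusted p under 0.05. *Dppa3* (-0.49, adjusted p = 0.641) and *Obox5* (0.12, adjusted p = 0.957) were the most abundant, and *Uhrf1*, which maintains DNA methylation, had 7019, 6771 and 7426 counts *in vivo* and 2059, 5347 and 2921 *in vitro* (log2 fold change -1.17, adjusted p = 0.266). Of 8 genes of the subcortical maternal complex none was called by edgeR or DESeq2 and 1 had an unadjusted p under 0.05 (median 0.25), and *Zbed3* was at 0.68 (adjusted p = 0.612) and *Nlrp4f* at 0.81 (adjusted p = 0.459).

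Of 21 genes of oocyte identity none was called by edgeR, 2 were higher at an unadjusted p under 0.05, and DESeq2 called 1 (median 0.03). *H1foo*, the oocyte linker histone, was at -0.34 (adjusted p = 0.843) and *Bcl2l10* at 0.03 (adjusted p = 0.99). Of the oocyte-secreted growth factors, neither passed the adjusted threshold, with *Bmp15* at 276 ± 85.4 *in vivo* and 559 ± 57.0 *in vitro* (normalised CPM, SD, n = 3, adjusted p = 0.357) and *Gdf9* at 8801 ± 3314 and 5236 ± 361 (adjusted p = 0.504). Of 22 genes of sperm binding and egg activation none was called by either tool and 2 were lower at an unadjusted p under 0.05 (median -0.25). *Plat* was among the most abundant (0.10, adjusted p = 0.974), and *Izumo1r* (Juno), the egg receptor for sperm, had 302, 491 and 408 counts *in vivo* and 147, 209 and 184 *in vitro* (log2 fold change -1.25, adjusted p = 0.303).

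The protein synthesis and energy lists held no gene called by edgeR. Among 75 cytosolic ribosomal protein genes the median log2 fold change was -0.47, with 20 of the 75 above 0, 1 higher and 3 lower at an unadjusted p under 0.05, and 1 called by DESeq2. Their summed level was 495, 1328 and 1094 normalised CPM *in vivo* and 589, 657 and 734 *in vitro*, so *in vivo* library 1 was below every other library. Without it the median was -0.78, and edgeR called 1 higher and 2 lower, beside 1.67% and 0.578% of all genes. *Rpl15* was at -0.12 (adjusted p = 0.941), and *Rpl7a* went the other way with 0, 10 and 0 counts *in vivo* and 219, 135 and 148 *in vitro* (ratio of means 45.6, adjusted p = 0.0612). *Rpl7a* shares its locus with small RNA genes and, like other ribosomal protein genes, has copies among pseudogenes, so its counts are uncertain.

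The 13 genes encoded by mitochondrial DNA took 0.849%, 4.44% and 2.86% of the counts *in vivo* and 7.69%, 1.58% and 1.87% *in vitro* (two-sided exact permutation test, p = 0.8). Their median log2 fold change was 0.53, and it was -0.73 without *in vitro* library 1, which held the largest share. *mt-Cytb* (0.58, adjusted p = 0.801) and *mt-Nd1* (0.93, adjusted p = 0.626) were the most abundant. edgeR and DESeq2 called none of the 13, and 1 was lower at an unadjusted p under 0.05. Among 76 nuclear genes of oxidative phosphorylation the median was -0.03, with 2 higher and 1 lower at an unadjusted p under 0.05 and 1 called by DESeq2, and *Atp5b* was at 0.03 (adjusted p = 0.989) and *Sdha* at 0.42 (adjusted p = 0.747). Among 26 genes of glycolysis and the pentose phosphate pathway it was -0.04, with 2 higher and 1 lower and 2 DESeq2 calls, and *Ldhb* was at 0.42 (adjusted p = 0.731) and *Taldo1* at 0.09 (adjusted p = 0.963). Among 33 proteasome genes it was -0.0027, with 1 higher, 1 lower and 0 DESeq2 calls, and *Psmd1* was at 0.31 (adjusted p = 0.771) and *Psma7* at -0.32 (adjusted p = 0.881).

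Signaling and stress lists also held no gene called by edgeR. At an unadjusted p under 0.05, 3 of 32 antioxidant enzymes were higher (DESeq2 called 2), 2 of 26 genes of DNA damage and p53 targets (DESeq2 0), 4 of 16 immediate early genes (DESeq2 2), 5 of 28 Wnt genes (DESeq2 0), 4 of 28 TGF-β, BMP and activin genes (DESeq2 1) and 0 of 9 cleavage stage genes (DESeq2 0), and none was lower at that p, beside 5.99% higher and 4.18% lower among all genes. Without *in vivo* library 1, edgeR called 1 antioxidant and 1 immediate early gene higher and no other member of these lists. Of all genes, 1.67% were called higher and 0.578% lower in that fit. Their median log2 fold changes were, in the same order, 0.14, 0.39, 0.88, 0.21, 0.13 and 0.62. Among the most abundant members, *Prdx1* was at 0.16 (adjusted p = 0.917), *Glrx* at 0.64 (adjusted p = 0.526), *Chek1* at 0.65 (adjusted p = 0.512), *Mdm2* at 0.37 (adjusted p = 0.818) and *Dusp1* at 0.89 (adjusted p = 0.473). *Egr1* was at 0.16 (adjusted p = 0.923), *Apc* at 0.55 (adjusted p = 0.512), *Smad3* at 0.09 (adjusted p = 0.961), *Eif4e3* at -0.30 (adjusted p = 0.808) and *Tcstv1* at 0.59 (adjusted p = 0.636). *Mycl* had 0 counts *in vivo* and 74, 10 and 14 *in vitro* (at least 10.8-fold higher, adjusted p = 0.16), and *Smad2*, a transducer of activin signals, had 334, 225 and 349 counts *in vivo* and 699, 816 and 609 *in vitro* (log2 fold change 1.14, adjusted p = 0.279). *Ctnnb1* (-0.28, adjusted p = 0.82) and *Tgfb2* (0.02, adjusted p = 0.993) were the most abundant of the Wnt and TGF-β lists. Over the 24 lists apart from the study's own, edgeR called 2 genes higher and 2 lower, beside 0.286% and 0.0642% of all genes. DESeq2 called 20 and 6, beside 1.31% and 0.741%. A gene in several lists was counted once. The distinct members tested were not counted, so no share of the members is given.

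Other cells of the ovary and oviduct left little signal. Of 14 theca and stroma markers, 8 were at or under the floor in all libraries, and the summed level was 4.02 to 12.7 CPM *in vivo* and 1.57 to 5.41 *in vitro*. Of 13 endothelial and blood markers, 8 were at or under the floor, and *Pecam1* made up most of the sum of 103 to 226 CPM *in vivo* and 125 to 154 *in vitro*. Of 10 oviduct epithelium markers, 4 were at or under the floor, and *Cdh1*, which oocytes also express, gave most of 270 to 340 and 244 to 294 CPM. edgeR called none of the 16 of these markers that were tested, DESeq2 called 1 lower, and 1 was higher and 1 lower at an unadjusted p under 0.05. The medians of the 3 lists were 1.17, -0.30 and -0.68. *Pdgfra*, a receptor of stromal cells, had 42, 76 and 3 counts *in vivo* and 0, 4 and 0 *in vitro* (adjusted p = 0.303), and *Krt8*, an epithelial keratin, 7, 5 and 23 and 48, 136 and 18 (adjusted p = 0.431). *Dcn* (adjusted p = 0.856) and *Kdr* (adjusted p = 0.905) had groups that overlapped.

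With all 6 libraries edgeR's biological coefficient of variation was 0.726. Leaving out *in vivo* library 2 gave 42 higher and 8 lower genes, of which 37 and 8 were among the main calls. Leaving out *in vivo* library 3 gave 17 and 2. All 60 called genes kept their direction in all 17 alternative fits, and 6 were called in each of them, namely *Tceal8*, *Ddx4*, *B930036N10Rik*, *Gm9825* and 2 overlapping entries of *Gm20690*. The groups of all 60 did not overlap, so leaving out 1 library could hardly reverse a direction, and the other fits reused the same counts. In each of the 6 fits that left out a library, 10 higher genes and 0 lower genes were called, and *Pxdn*, *Gbe1*, *Hmgcs1* and *Thrsp* were among the 10.

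**Figure D4:**
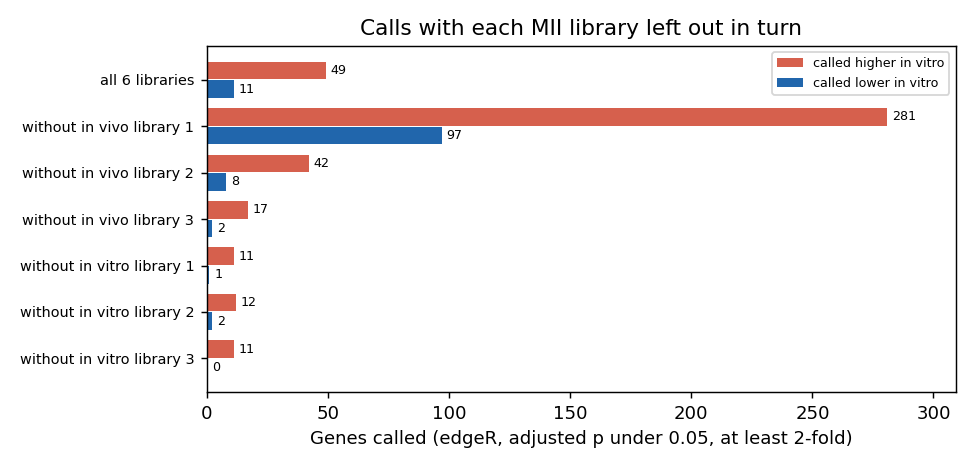
Number of genes called by edgeR with all 6 MII libraries and with each left out in turn, red for higher and blue for lower *in vitro*. The bars rise from 49 and 11 to 281 and 97 without *in vivo* library 1 and shrink to 11 or 12 and 0 to 2 without any one *in vitro* library.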

How the data were processed

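The 6 MII libraries were grouped and numbered by their sample labels. Per the labels and the paper's methods, the authors trimmed reads with Trim Galore 0.4.1, used TopHat2 for alignment to mm10 and featureCounts for counting, and deposited raw counts per Ensembl gene and TPM values normalized for length. The strand setting and the handling of multiply mapped reads are not given in the sources used here, so counts of overlapping genes and of paralogs are uncertain. Gene positions came from GENCODE release 21 (GRCm38), which held 53620 of 53715 genes. Counts of genes with at least 10 in total were fitted in R 4.3.3 with edgeR 4.0.16 (TMM, robust glmQLFit, glmQLFTest) on the 6 libraries alone, without covariates, and tested on simulated data. Normalised CPM are counts scaled to the TMM library size (CPM). Standard errors (SE) were computed from the test, as the absolute log2 fold change divided by the square root of its F statistic. Folds against a group without counts use the floor of 3 counts per library. The alternatives used DESeq2 1.42.0, limma 3.58.1 (voom, and log2 TPM with pseudocounts of 1 and 0.1), other scalings and filters, a replicate block and each library left out. The members and the 25 gene lists were chosen with earlier results of these data known. All but 2 of 773 listed symbols were matched. Named genes were the 12 smallest p-values among called genes of each direction with no overlap of groups, up to 8 moderate ones per direction, and in each list the called members and the 2 most abundant others. Genes known only by number were counted but not named under this rule, and other genes were chosen after their values were seen. A few genes are not reported here.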

Additional observations from a re-analysis of the deposited data

How the results depend on the processing

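The counts of called genes depended most on the test and on single libraries. For all genes called higher and lower (49 and 11), DESeq2 gave 224 and 127, DESeq2 without its filters 211 and 111, limma-voom with quality weights 340 and 123, limma on log2 TPM 17 and 2 (pseudocount 1) or 20 and 3 (pseudocount 0.1), and a filter of at least 1 count 185 and 78. For well counted genes (27 and 11), the same settings gave 104 and 98, 99 and 86, 199 and 106, 9 and 2, 12 and 2, and 99 and 65. For list members (2 and 2), they gave 20 and 6, 19 and 5, 22 and 6, 1 and 1, 2 and 1, and 17 and 5. Counts of list members describe the settings here and are not read as a result about the members. The cause of the differences between settings was not tested, except that fewer libraries enter the fits below. Leaving out each library in turn gave 11 to 281 higher and 0 to 97 lower genes, 9 to 224 and 0 to 90 well counted genes, and 2 to 20 and 0 to 6 list members. The highest of each came without *in vivo* library 1, while without *in vivo* library 3 there were 17 and 2 genes, and without *in vitro* library 1, 2 or 3 there were 11 and 1, 12 and 2, and 11 and 0. DESeq2 size factors, library size alone, filterByExpr and no robust estimation gave 36 to 47 higher and 9 to 11 lower genes.

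Deviations of same-numbered libraries from their group means correlated at 0.01, -0.05 and 0.08. No label pairs the libraries beyond their number, so the main fit took them as unpaired. Correlations from so few libraries cannot show whether a pairing exists. With the replicate block, 71 genes were higher and 14 lower, 46 and 14 well counted genes passed, and 5 and 2 list members were called.

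The share of counts of the 13 mitochondrially encoded genes differed by 0.999 percentage points (*in vitro* minus *in vivo*) and by -0.99 without *in vitro* library 1, with a range of -0.99 to 2.07 over the libraries left out. The difference in detected genes (1235) ranged from 490.2 to 1797 and that of the share of the 10 top genes (1.98 percentage points) from 0.185 to 3.45. Under 1 CPM the standard errors were too large for a call at this depth.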

Other observations

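Of 855 pseudogenes tested, 9 were called higher and 0 lower, and of 3037 non-coding or unclassified genes 7 were higher and 5 were lower. The 2 entries of *Gm20690*, which lie over each other on chromosome 3, had identical counts of 1, 1 and 0 *in vivo* and 562, 569 and 311 *in vitro*, so they are 1 signal. Of 4380 overlapping pairs of tested genes, 71 pairs with at least 100 counts had identical counts in all 6 libraries. *Gm9825* on chromosome 6 had 1 count in each *in vivo* library and 383, 349 and 235 *in vitro*. The pseudogenes *Vmn2r-ps110* and *Vmn2r-ps111* on chromosome 14, in 3 overlapping or neighbouring entries, had log2 fold changes of 5.67, 5.70 and 7.79. Pseudogenes share sequence with other genes, and the handling of such reads is not given in the sources used here.

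Among the lower non-coding genes, *Gm47847* on chromosome 12 had 1270, 2838 and 2679 counts *in vivo* and 262, 418 and 295 *in vitro* (log2 fold change -2.90). *Gm44087* lies within *Itpr2*, the calcium release channel gene, on the opposite strand and had a log2 fold change of -2.04. *Itpr2* itself had 2002, 10875 and 8894 counts *in vivo* and 4704, 2001 and 2833 *in vitro* (log2 fold change -1.23, adjusted p = 0.468). All of these genes were chosen after their values were seen.

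Of the 49 genes called higher in MII oocytes, 38 exceeded 3 counts in at least 1 of the 12 libraries of oocytes from primordial and primary follicles, which were laser microdissected and amplified with another kit, so that no test set these values against those of MII oocytes. The share of all tested genes that passed this low bar was not counted, so the 38 cannot be read as particular to these genes.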
